A study of Mus musculus with 6 samples.

Results

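The genes described here are the 83 cytoplasmic ribosomal protein genes that could be picked by symbol from 25526 genes in RNA-seq tables of MOC2, a cell line from a mouse oral squamous carcinoma. The rule took symbols made of Rpl or Rps, a number and optionally a letter (a, x, y or l) and further digits. It also took Rplp0, Rplp1, Rplp2, Rpsa and Rps27a, and left out the Rps6k kinases and pseudogene names. It gave 51 large subunit and 32 small subunit members and used no measured value. Of these, 80 had enough reads to be tested. Rpl10l and Rpl39l were listed with 0 reads and Rpl3l with 1 read over all libraries.

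The groups were 3 cultures of MOC2 cells with a knockout of p62 and 3 cultures of parental MOC2 cells with wild-type p62. The p62 protein, encoded by Sqstm1, is a receptor that carries ubiquitin-tagged cargo to autophagosomes. All cultures grew in serum-containing medium with no added treatment, and poly(A) RNA was sequenced from directional libraries. The labels name 3 biological replicates per group and do not say whether the knockout cells were 1 clone, several clones or a pool. In RNA from whole cultures, less RNA per cell and fewer cells with a high level cannot be told apart.

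The cytoplasmic ribosome is built from a small and a large subunit, each made of ribosomal RNA and a fixed set of proteins. The small subunit reads the mRNA, the large subunit joins amino acids, and the new peptide leaves through a tunnel in the large subunit. Most ribosomal protein mRNAs start with a run of pyrimidines, the 5' terminal oligopyrimidine tract, through which mTORC1 and LARP1 set their translation and stability. Surplus large subunit proteins can also signal: Rpl5 and Rpl11, bound to 5S ribosomal RNA, can hold back Mdm2, the ubiquitin ligase of p53.

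Promoter windows were read for the members that moved furthest in either direction, since a shared start sequence is the feature this gene class is known for. RefSeq promoter sequences of GRCm38.p6 were found for 63 of the 83 members, with 75 listed starts. A run of at least 8 pyrimidines (C or T) on the transcribed strand, within 20 bases on either side of the start, was present at 31 of the 75 member starts (41.3%) and at 16% of all 32851 listed starts. The letters CGGAAG, on either strand in the 300 bases around the start, were present at 45 of the 75 (60%) and at 16.9% of all starts. Each window printed here runs from 60 bases before to 20 bases from the start onward, 5' to 3' on the gene's strand, and capitals mark a pyrimidine run of at least 8 that lies wholly within 20 bases on either side of the start. Runs farther from the start are left in lower case. The listed start need not be the start used in these cells. The first 4 genes had the highest fold changes of members in the table, and the last 4 were among the lowest when p62 knockout replicate 2 was left out.
Rpl7l1, chr17:46782637-46782716, minus strand: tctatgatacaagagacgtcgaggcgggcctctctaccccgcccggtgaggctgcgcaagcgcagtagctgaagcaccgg
Rps27l, first of 2 listed starts, chr9:66946026-66946105, plus strand: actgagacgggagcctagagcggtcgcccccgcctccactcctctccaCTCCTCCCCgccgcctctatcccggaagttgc
Rpl41, chr10:128549149-128549228, minus strand: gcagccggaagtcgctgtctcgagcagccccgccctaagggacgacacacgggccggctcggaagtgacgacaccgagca
Rpl37a, chr1:72711200-72711279, plus strand: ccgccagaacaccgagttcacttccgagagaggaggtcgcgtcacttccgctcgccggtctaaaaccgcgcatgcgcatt
Rpl23, chr11:97782420-97782499, minus strand: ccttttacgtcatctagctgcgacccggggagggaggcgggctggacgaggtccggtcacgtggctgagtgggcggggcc
Rpl26, chr11:68901506-68901585, plus strand: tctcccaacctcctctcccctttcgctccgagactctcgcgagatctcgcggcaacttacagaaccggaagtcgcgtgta
Rpl28, chr7:4792905-4792984, plus strand: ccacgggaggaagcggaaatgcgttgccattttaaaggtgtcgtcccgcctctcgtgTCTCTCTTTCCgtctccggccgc
Rps6, chr4:86857348-86857427, minus strand: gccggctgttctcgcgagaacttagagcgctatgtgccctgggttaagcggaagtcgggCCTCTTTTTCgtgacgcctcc

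Within 20 bases of the start, Rpl28, Rps6 and the first Rps27l start held a run, and the other 5 did not. Rpl26 has a long pyrimidine run farther before its start. The letters CGGAAG were found in the longer 300-base stretch of each printed start except those of Rpl7l1 and Rpl28. Both kinds of match therefore occurred among members that were higher and among members that were lower.

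The libraries held 32821860, 41763980 and 34301376 exon reads in p62 knockout replicates 1 to 3 and 39185828, 38490029 and 33349014 in parental replicates 1 to 3. Sqstm1 stood at 117, 589 and 125 CPM (exon reads scaled by TMM library size) in the knockout libraries and at 1567, 1783 and 2103 CPM in the parental libraries, so p62 knockout replicate 2 kept more of the targeted transcript than the other two. Its log2 fold change was -2.71 (edgeR quasi-likelihood, Benjamini-Hochberg adjusted p = 0.048), and this call was lost in 8 of 15 other settings. Of 13 squamous epithelial markers 10 reached a mean of 1 CPM, while Krt5, Krt6a and Trp63 did not. Summed squamous markers were between 5391 and 8434 CPM in knockout libraries and between 5766 and 6805 CPM in parental libraries. Summed mesenchymal genes were between 1947 and 2529 CPM in knockout libraries and between 4873 and 5799 CPM in parental libraries. Summed leukocyte markers stood at 5.34 to 7.30 CPM in knockout libraries against 20.7 to 23.5 CPM in parental libraries, with 6 of 8 markers below 1 CPM and Cd3e at 0. Summed fibroblast markers stood at 4.31 to 5.02 CPM in knockout libraries against 13.9 to 16.7 CPM in parental libraries, with 3 of 5 below 1 CPM and Lum at 0. Endothelial and erythroid markers each had a mean below 1 CPM. The part of these differences in the results that follow was not tested.

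Ribosomal protein mRNAs made up much of the transcript pool. Their TPM, a level per exon length, summed to 16.7%, 24.9% and 17.8% of all TPM in p62 knockout replicates 1 to 3, against 22.4%, 20.2% and 21.2% in parental replicates 1 to 3. Replicate 2 was the highest of the 6 libraries and replicates 1 and 3 were the lowest. The large subunit took 10.04%, 14.7% and 10.7% of all TPM in the knockout libraries against 13.5%, 12.4% and 12.9% in the parental libraries. The small subunit took 6.69%, 10.2% and 7.11% in the knockout libraries against 8.89%, 7.77% and 8.21% in the parental libraries, the same order of libraries as for the large subunit.

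As a share of exon reads, members took 7.13% (Wilson 95% interval 7.12 to 7.13), 11.0% (10.9 to 11.0) and 7.79% (7.78 to 7.80) in p62 knockout replicates 1 to 3. The shares in parental replicates 1 to 3 were 9.45%, 8.44% and 9.17%. The mean share was 8.62% ± 2.05 in knockout cells and 9.02% ± 0.521 in parental cells (SD, n = 3 each), and the difference of -0.397 percentage points lay inside the knockout spread. Without p62 knockout replicate 2 the difference was -1.56 percentage points, and without p62 knockout replicate 1 it was 0.352.

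Levels per length differed widely between members. The mean TPM over 6 libraries ranged from 111 for Rpl7l1 to 8324 for Rplp1, with a median of 2291, and 74 members were among the 200 genes of highest mean TPM. Rplp1, a P stalk protein that recruits elongation factors, stood at 7238, 9240 and 8031 TPM in p62 knockout libraries and at 8177, 8176 and 9081 TPM in parental libraries. Behind it came Rpl23a, a protein of the tunnel rim, with 6959 TPM, Rpl13 with 6705, Rplp0 with 6249 and Rpl19 with 5634. Rpl23a alone spanned 4762, 7663 and 4831 TPM in knockout libraries against 8743, 7721 and 8033 TPM in parental libraries. Its range overlapped that of Rplp1, and the order of these members was not tested.

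The lowest levels belonged mostly to paralogs of other members. After Rpl7l1, mean TPM was 273 for Rps15a, 319 for Rps27l, 486 for Rpl22l1 and 542 for Rpl22. For Rps15a the files list an exon length of 6000 bases, the longest of any member against a median of 1023 bases, and a level per length depends on that length. Rpl22 binds RNA of the large subunit and is dispensable in many mouse tissues. Its level of 425, 548 and 443 TPM in knockout libraries, against 656, 598 and 582 TPM in parental libraries, was lower in each knockout library than in each parental library on the TPM scale. On the TMM-scaled CPM scale the groups overlapped, with knockout replicate 2 at 475 and parental replicate 2 at 470.4 CPM.

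**Figure D1:**
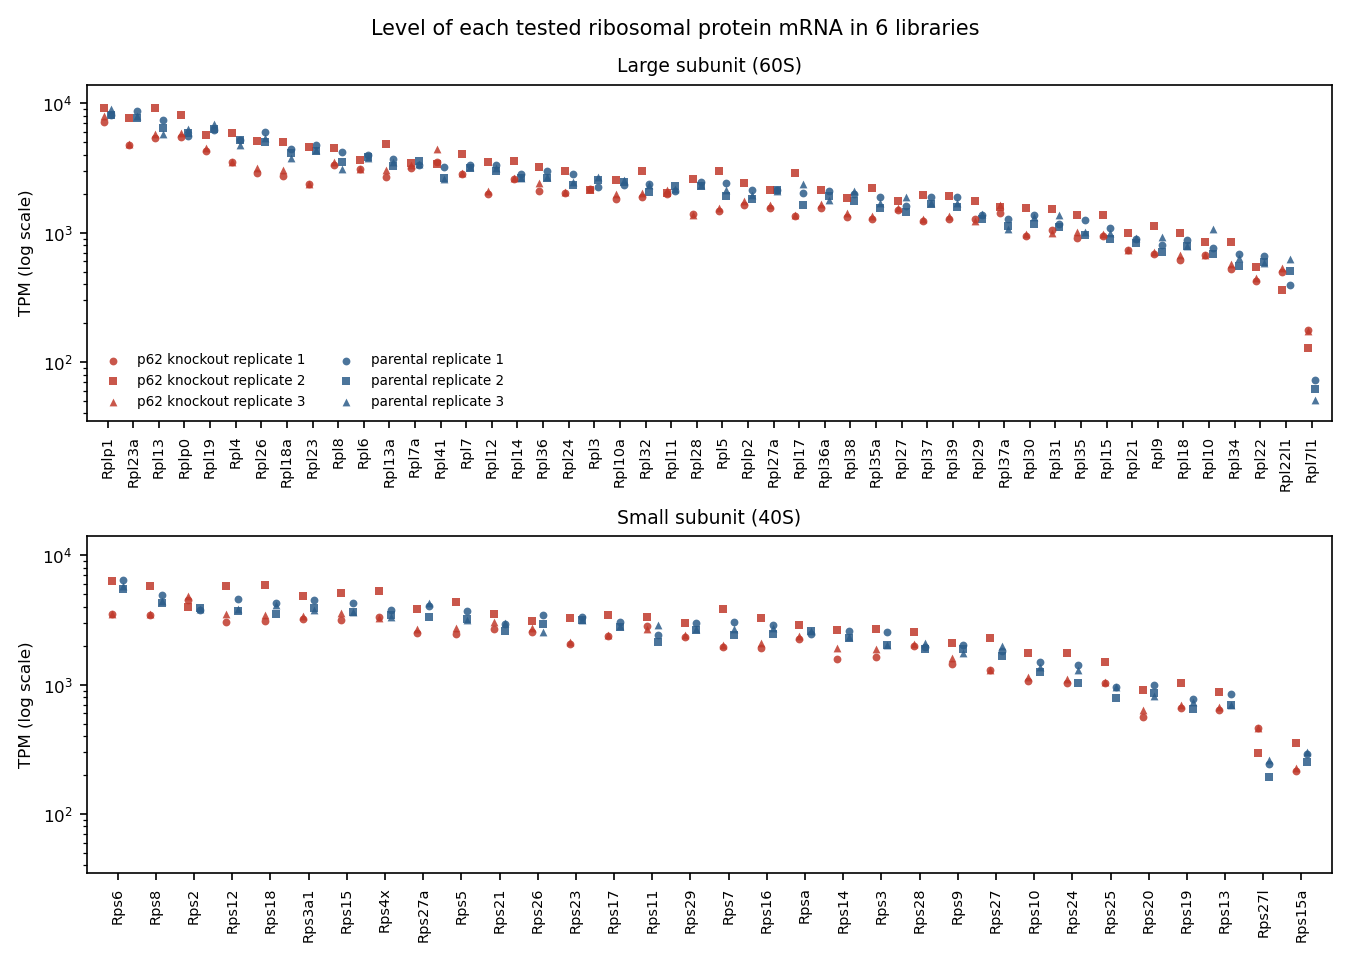
Level in TPM (log scale) of each of the 80 tested members in every library, large subunit above and small subunit below, ordered by mean level; red is p62 knockout, blue is parental, and the marker shape gives the replicate. The red squares of knockout replicate 2 lie above the other red points for nearly all members, and Rpl7l1 is the lowest member, with a mean of 111 TPM.

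The 3 p62 knockout libraries did not place the ribosomal proteins alike. The median member stood at -0.28, 0.37 and -0.12 in knockout replicates 1 to 3, in log2 CPM relative to the parental mean, while the median of all tested genes lay between -0.01 and 0.02. In knockout replicate 1, 58 of 80 members (72.5%) lay below every parental library, against 37.5% of all tested genes, and 6 lay above, against 38.9%. In knockout replicate 3, 37 members (46.2%) lay below, against 38% of all genes, and 9 lay above, against 39.4%. In knockout replicate 2 the order was turned round: 66 members (82.5%) lay above every parental library, against 33.5% of all genes, and 2 lay below, against 35.2%.

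Members varied together within the knockout group. Knockout replicate 2 was above both other knockout libraries for 72 of 80 members, against 43.7% of all tested genes. Knockout replicate 3 was above replicate 1 for 80 of 80 members. The share of all genes for this second count is not given here. The median of all tested genes was 0.01 in knockout replicate 1 and 0.02 in knockout replicate 3. The median absolute difference was 0.15 (log2 CPM) between knockout replicates 3 and 1 and 0.64 between knockout replicates 2 and 1. The median distance between the highest and lowest parental library was 0.28. The 8 members for which knockout replicate 2 was not the highest were Rpl7l1, Rps27l, Rpl22l1, Rps2, Rpl41, Rpl37a, Rpl3 and Rpl11, and in Rpl7l1, Rps27l, Rpl22l1 and Rps2 it was the lowest of the 3.

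Other measures moved with these libraries. Mitochondrially encoded genes took 0.952%, 1.78% and 1.36% of exon reads in knockout replicates 1 to 3 and 1.56%, 1.36% and 1.73% in parental replicates 1 to 3. Most members are short, and 329 other protein-coding genes with an exon length up to 2000 bases and at least 100 CPM, a set chosen after the members' values were seen, had a median of 0.31, -0.03 and 0.38 in knockout replicates 1 to 3 against the parental mean. They were highest in the 2 knockout libraries in which the members were lowest. Their part in the result was not tested.

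**Figure D2:**
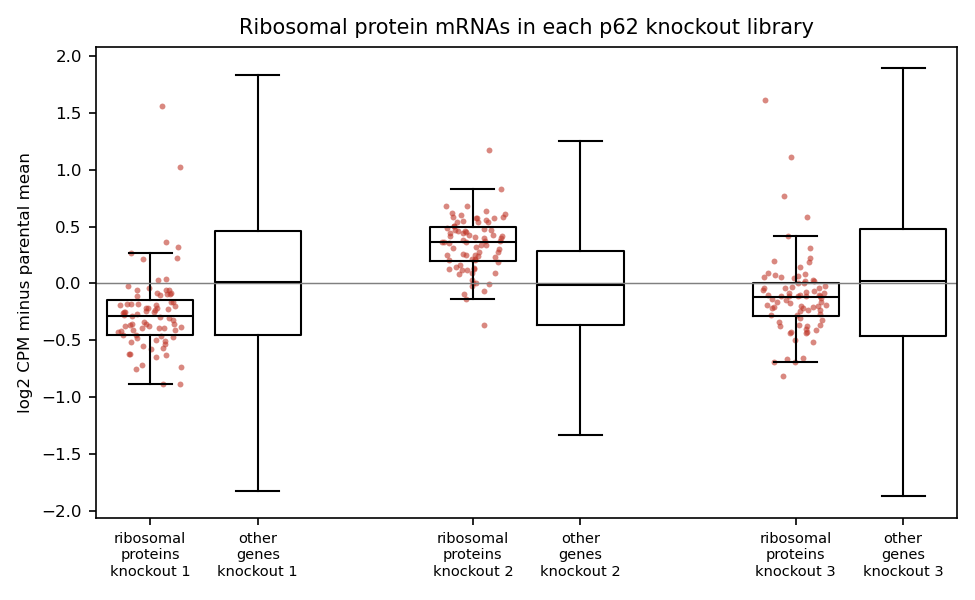
log2 CPM minus the mean of the 3 parental libraries, for the 80 tested members (red points and left box of each pair) and all other tested genes (right box), in p62 knockout replicates 1, 2 and 3; boxes give the median and quartiles and whiskers reach up to 1.5 times the box height. Members centre at -0.28, 0.37 and -0.12, while the other genes centre near 0 in each library.

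Across all 6 libraries, 1 member was called higher in p62 knockout cells and 0 were called lower, with 79 not called. A call was an edgeR quasi-likelihood test with a Benjamini-Hochberg adjusted p below 0.05 over 12775 genes. Of all tested genes 3.48% were called higher and 5.6% lower. An unadjusted p below 0.05 was reached by 4 members, each higher in knockout cells (Rpl7l1, Rps27l, Rpl37a and Rpl41), against 32.5% of all genes. The median log2 fold change was -0.01 over the members and 0.02 over all tested genes. It was positive for 37 members and negative for 43, and 77 of 80 lay within 0.5 of no change. DESeq2 called 4 members higher and 0 lower, against 11.6% of all genes called higher. The share of all genes that DESeq2 called lower is not given here. Groups did not overlap for 6 members that were above in every knockout library (17.2% of all genes) and for 1, Rpl19, that was below (19% of all genes).

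Rpl7l1 (ENSMUSG00000063888), a paralog of Rpl7 that is related to a large subunit assembly factor of yeast, was the member that rose. The knockout libraries held 223, 172 and 231 CPM of it, in the order of their replicates, and the parental libraries 88.8, 74.3 and 66.1 CPM. Every knockout library was above every parental library. The log2 fold change was 1.45 ± 0.17 (SE), or 2.73-fold, with an edgeR adjusted p of 0.010. The call was lost when parental replicate 2, knockout replicate 1 or knockout replicate 3 was left out, with an adjusted p of up to 0.0807, and was kept in the other 12 of 15 settings.

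Rps27l (ENSMUSG00000036781), the paralog of Rps27 and a known p53 target in human cells, had 107, 71.7 and 114 CPM in knockout libraries and 54.7, 42.4 and 62.9 CPM in parental libraries. Knockout replicate 2 was the lowest of its group and still above all parental libraries. The log2 fold change of 0.87 ± 0.23 did not pass with edgeR (adjusted p = 0.057) and passed with DESeq2 (adjusted p = 0.00564).

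Rpl41, the smallest ribosomal protein, had 1021, 1029 and 1349 CPM in knockout libraries and 896, 719 and 771 CPM in parental libraries. The groups did not overlap, and the log2 fold change of 0.51 ± 0.18 had an edgeR adjusted p of 0.102. Rpl37a, a zinc-binding protein of the large subunit, had 408, 479 and 491 CPM in knockout libraries against 357, 310 and 318 CPM in parental libraries. Its log2 fold change of 0.49 ± 0.14 had an edgeR adjusted p of 0.066. DESeq2 gave adjusted p-values of 0.034 for Rpl41 and 0.014 for Rpl37a. Rps25, a small subunit protein needed by many viral internal ribosome entry sites, had 568, 866 and 604 CPM in knockout libraries and 512, 410 and 550 CPM in parental libraries (log2 fold change 0.47 ± 0.21, edgeR adjusted p = 0.168). In Rps25, knockout replicates 1 and 3 were close above the highest parental library and replicate 2 far above it.

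Among the lowest fold changes, Rpl26, a tunnel rim protein that also binds p53 mRNA in human cells, had 831, 1537 and 952 CPM in knockout libraries and 1663, 1357 and 1599 CPM in parental libraries. Knockout replicate 2 lay within the parental range and replicates 1 and 3 well below it, and the log2 fold change of -0.48 ± 0.26 was not called (edgeR adjusted p = 0.237). Rpl23, at the subunit interface of the large subunit, had 1155, 2323 and 1210 CPM in knockout libraries against 2220, 1976 and 2205 CPM in parental libraries. Here knockout replicate 2 was the highest of all 6 libraries, while replicates 1 and 3 were well below every parental library (log2 fold change -0.45 ± 0.29, edgeR adjusted p = 0.320). Rpl19, a protein of the tunnel rim, had 1373, 1921 and 1522 CPM in knockout libraries and 1933, 1927 and 2300 CPM in parental libraries, so that replicate 2 was just below the parental range. Rpl23a and Rpl28 had log2 fold changes of -0.43 ± 0.23 and -0.33 ± 0.27 and were not called, and in each of them knockout replicates 1 and 3 were the lowest of the 6 libraries.

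**Figure D3:**
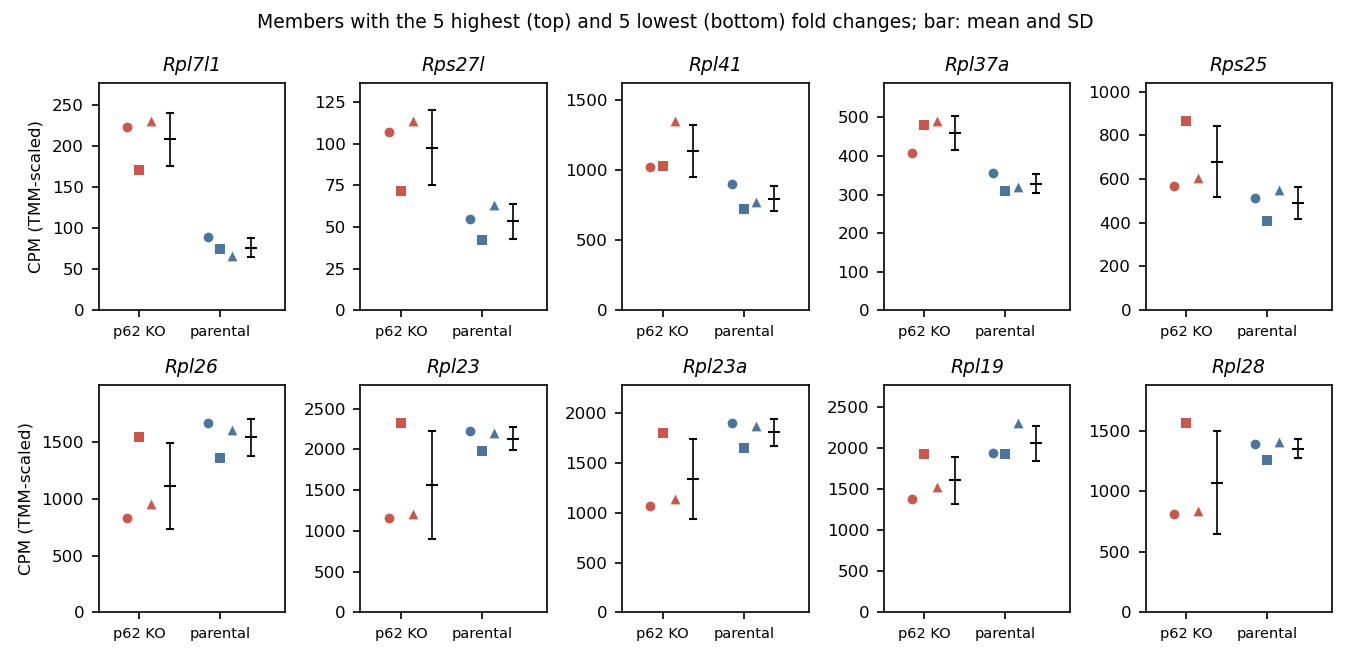
TMM-scaled CPM per library of the members with the 5 highest (top row) and the 5 lowest (bottom row) log2 fold changes, p62 knockout in red on the left and parental in blue on the right of each panel; circle, square and triangle are replicates 1, 2 and 3, and bars give the mean and SD of 3 libraries. In the top row the groups do not overlap, and in the bottom row the square of knockout replicate 2 lies at or near the parental libraries while the other red points lie below them.

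Because knockout replicate 2 stood apart, the members were also tested without it. The choice to leave it out was made with the members' own values known, so the adjusted p-values of this fit are descriptive. With 2 knockout and 3 parental libraries, 22 of 80 members (27.5%) were called lower, against 23.2% of all 12942 genes tested, and 4 members (5%) were called higher, against 23% of all genes. The share called lower was thus close to that of all genes, and the share called higher was below it. The median log2 fold change of the members was -0.24, against -0.01 over all genes, and 69 of 80 were negative. The large subunit had 14 lower and 3 higher of 48 members and the small subunit 8 lower and 1 higher of 32. Their medians were alike, at -0.24 for each. Leaving out any other single library gave 0 lower members. The 2 knockout libraries left without replicate 2 were the most alike pair within either group. Their chi-square per degree of freedom was 7.77, against 40.8 or more for the other pairs within groups. The knockout spread in that fit rests on these 2 libraries alone, and their clonal origin is not given.

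The 5 lowest called members without knockout replicate 2 were Rpl23, Rpl26, Rpl28, Rpl23a and Rps6. Rpl23 had a log2 fold change of -0.87 ± 0.11 (edgeR adjusted p = 0.002), or 1.82-fold lower in p62 knockout cells. Rpl26 was at -0.80, Rpl28 at -0.72, Rpl23a at -0.72 and Rps6 at -0.70, with edgeR adjusted p-values between 0.003 and 0.005. Rps6, the small subunit protein phosphorylated by the S6 kinases downstream of mTORC1, had 1246, 2336 and 1299 CPM in knockout replicates 1 to 3 and 2178, 1846 and 2123 CPM in parental libraries. The 4 members called higher were Rpl7l1, at 1.56, Rps27l, at 1.03, Rpl41, at 0.56, and Rpl37a, at 0.44.

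**Figure D4:**
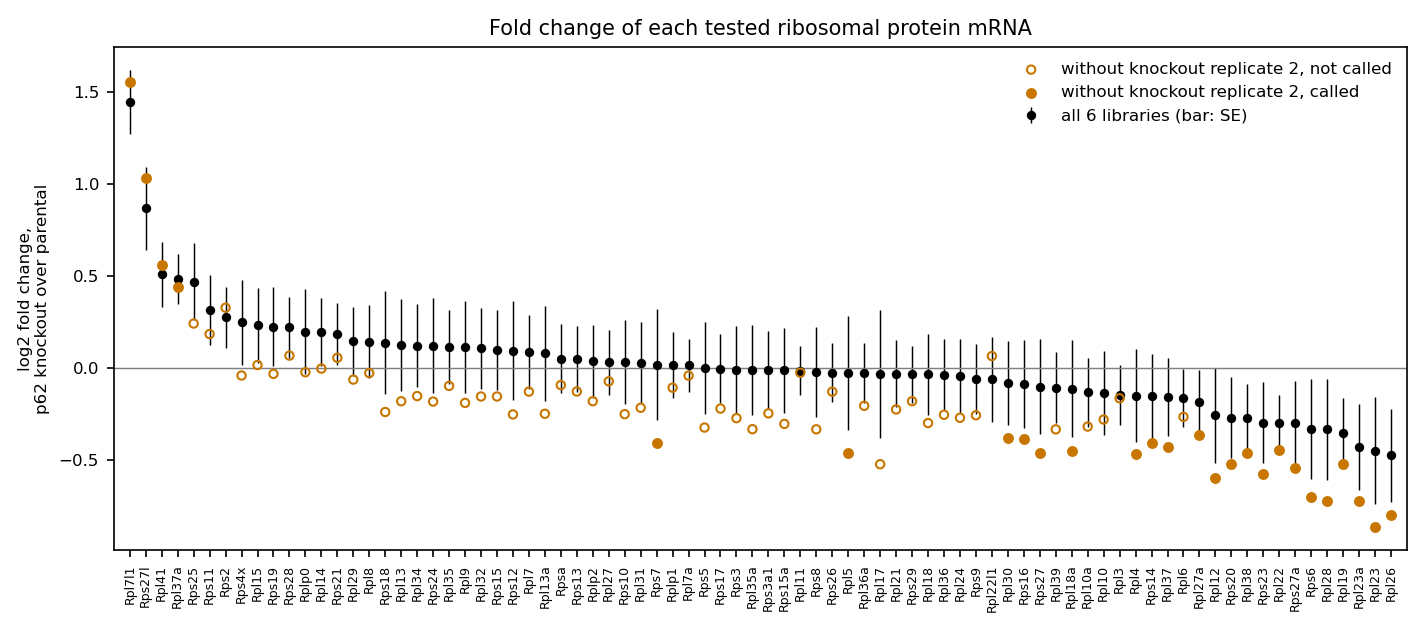
log2 fold change of p62 knockout over parental for the 80 tested members, ordered by the value with all 6 libraries (black, bars are the standard error) and again without knockout replicate 2 (orange, filled where the edgeR adjusted p was below 0.05). Most orange points lie below the black ones, with 22 called lower and 4 called higher, and the same 4 members stand highest of those called.

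By place in the ribosome, no list of members had a call with 6 libraries except through Rpl7l1. In the P stalk, Rplp0 had 3517, 5452 and 3950 CPM in knockout libraries and 3466, 3585 and 4209 CPM in parental libraries, with a log2 fold change of 0.20 ± 0.23. Rplp1 was at 0.02 ± 0.18 and Rplp2 at 0.04 ± 0.20. None of the 3 was called by edgeR with or without knockout replicate 2.

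Of the 5S RNP pair, Rpl5 had 1332, 2817 and 1458 CPM in knockout libraries and 2095, 1637 and 1981 CPM in parental libraries, and Rpl11 had 768, 808 and 862 CPM in knockout libraries and 778, 828 and 858 CPM in parental libraries. Rpl11 groups overlapped over a narrow range, whereas Rpl5 spanned more than the parental range in either direction. Without knockout replicate 2, Rpl5 was at -0.46 (edgeR adjusted p = 0.034) and Rpl11 at -0.03 (adjusted p = 0.855). Of the mRNAs of Mdm2, Trp53 and Cdkn1a, 0 of 3 were called in either fit. Of all genes, 3.48% were called higher and 5.6% lower with 6 libraries, and 23% and 23.2% without knockout replicate 2. With 3 genes the count cannot be told apart from these shares, and mRNA levels do not show whether the pair bound Mdm2.

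The 8 proteins that line the exit tunnel and its rim (Rpl4, Rpl17, Rpl39, Rpl19, Rpl23a, Rpl26, Rpl31 and Rpl35) had 0 calls and a median log2 fold change of -0.13. Without knockout replicate 2 their median was -0.50 and 4 were lower, Rpl4, Rpl19, Rpl23a and Rpl26, against 23.2% of all genes. The mRNA entry proteins Rps2, Rps3 and Rps9 had 0 calls in either fit, and Rps2 was above every parental library in each knockout library, with 2386, 2174 and 2648 CPM in knockout libraries against 1908, 1939 and 2105 CPM in parental libraries. Its log2 fold change was 0.28 ± 0.17 (edgeR adjusted p = 0.282). The 6 proteins near the mRNA exit had 0 calls, and without knockout replicate 2 Rps14 was lower. Of 17 genes mutated in human Diamond-Blackfan anemia, a failure of red cell formation, 0 were called with 6 libraries and 4 were lower without knockout replicate 2, a share close to the 23.2% of all genes. Rps27a, a fusion of ubiquitin and a small subunit protein, had 886, 1440 and 1011 CPM in knockout libraries and 1404, 1134 and 1575 CPM in parental libraries (log2 fold change -0.30 ± 0.23, edgeR adjusted p = 0.395). Without knockout replicate 2, Rps27a was called lower (log2 fold change -0.55, edgeR adjusted p = 0.035), as were 23.2% of all genes.

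Some paralogs can replace their canonical member, so the level per length of each paralog was set against its canonical member within each library. A ratio of mRNA levels does not show which protein is built into the ribosome. Rpl7l1, as a relative of an assembly factor, need not take the place of Rpl7. Rpl7l1 stood at 6.23%, 3.20% and 6.04% of Rpl7 in p62 knockout libraries and at 2.19%, 1.97% and 1.58% in parental libraries. The ratio was above every parental library in each knockout library and on average 2.61-fold higher. The two-sided exact permutation p was 0.1, which is the smallest that 3 against 3 libraries allow, and 0.3 after Benjamini-Hochberg adjustment over 3 pairs. Rpl7 itself had a log2 fold change of 0.09 ± 0.20.

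Rps27l stood at 35.7%, 12.9% and 36.2% of Rps27 in knockout libraries and at 13.4%, 11.5% and 13.1% in parental libraries. Knockout replicate 2 lay within the parental range, and the difference of 1.01 in the log2 ratio had an exact permutation p of 0.3 (adjusted 0.45). Only 0.300% of Rps27 reads were unique, so the Rps27 level is uncertain. With unique reads the difference was 1.83, a value that rests on 283 unique Rps27 reads over all 6 libraries. Rpl22l1, which is derepressed when Rpl22 is lost in mice, stood at 118%, 66.2% and 120% of Rpl22 in knockout libraries and at 60.2%, 83.8% and 107% in parental libraries, with overlapping groups (difference 0.26, exact permutation p = 0.5). Rpl39l, Rpl3l and Rpl10l, paralogs expressed mainly in testis or muscle, stayed below 1 TPM.

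**Figure D5:**
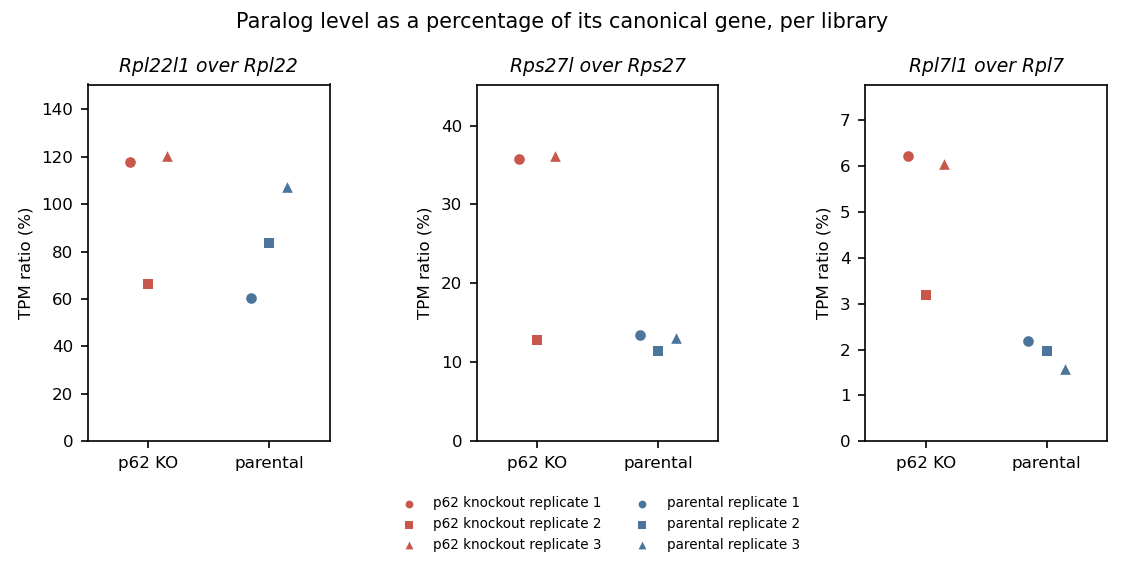
TPM of a paralog as a percentage of the TPM of its canonical gene in each library, for Rpl22l1, Rps27l and Rpl7l1; p62 knockout is red on the left, parental blue on the right. Only for Rpl7l1 do the groups not overlap, with knockout libraries between 3.20% and 6.23%.

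Ribosomal protein genes have many processed pseudogenes, so a read can match several places. How such reads were counted was not given in the sources used here. In 65 of the 80 tested members at least 99% of reads were unique, and in 7 fewer than 50% were. These 7 were Rps27, Rpl10 (6.30%), Rpl9 (20.9%), Rps23 (21.5%), Rpl13a (24.6%), Rps10 (28.9%) and Rps18 (37.6%), and their levels are uncertain. Rpl7l1, Rps27l, Rpl41 and Rpl37a had only unique reads. With unique reads alone, 1 member was again called higher and 0 lower.

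Fau, Rack1 and Rpl36al, ribosome components outside the naming rule, were not called by edgeR with 6 libraries. Fau, which encodes the small subunit protein eS30 as a fusion, had 654, 1179 and 762 CPM in knockout libraries and 653, 537 and 582 CPM in parental libraries (log2 fold change 0.55 ± 0.24, edgeR adjusted p = 0.160). Rack1, a scaffold on the small subunit, had 1719, 3437 and 1919 CPM in knockout libraries and 3197, 2942 and 3172 CPM in parental libraries. Knockout replicate 2 was the highest of the 6 libraries and replicates 1 and 3 the lowest. Without knockout replicate 2, Rack1 was at -0.79 (edgeR adjusted p = 0.003) and Rpl36al at 0.07 (adjusted p = 0.751). Of 18 other mRNAs known for a 5' terminal oligopyrimidine tract, 0 were called with 6 libraries, and 1 was higher and 8 lower without knockout replicate 2, against 23% and 23.2% of all genes. Among them Pabpc1, the poly(A)-binding protein, had 2390, 3467 and 2367 CPM in knockout libraries against 4263, 3755 and 3768 CPM in parental libraries (log2 fold change -0.52 ± 0.22, edgeR adjusted p = 0.153). Every knockout library was below every parental library, and without knockout replicate 2 Pabpc1 was called lower (log2 fold change -0.74, edgeR adjusted p = 0.00386).

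Of 55 ribosome assembly and Pol I factors, 6 rose and 0 fell with 6 libraries, against 3.48% of all genes called higher and 5.6% called lower, and the median log2 fold change was 0.33. Without knockout replicate 2, 20 were higher and 3 lower, against 23% and 23.2% of all genes. Their median deviation from the parental mean was 0.32, 0.34 and 0.35 (log2 CPM) in knockout replicates 1 to 3. Single members differed between the knockout libraries: Mrto4 was at 0.82, 0.41 and 0.98, and Heatr1 at 0.05, 0.59 and 0.09. Dkc1, the pseudouridine synthase of box H/ACA particles, had 140, 116 and 147 CPM in knockout libraries and 74.7, 65.2 and 56.7 CPM in parental libraries (log2 fold change 1.04 ± 0.16, edgeR adjusted p = 0.019). Nop56, a core protein of box C/D particles, had 346, 319 and 359 CPM in knockout libraries and 236, 176 and 168 CPM in parental libraries (log2 fold change 0.82 ± 0.16, edgeR adjusted p = 0.033). The other 4 were Nop58, Nip7, Mrto4 and Riok1. These calls depend on the libraries used: with parental replicate 2, parental replicate 3, knockout replicate 1 or knockout replicate 3 left out, 0 genes of the lists outside the ribosomal proteins were called. Myc, a driver of ribosome production, had 204, 463 and 199.9 CPM in knockout libraries and 431, 464 and 522 CPM in parental libraries and was not called (log2 fold change -0.71 ± 0.34, edgeR adjusted p = 0.189). Myc was called lower without knockout replicate 2 (log2 fold change -1.24, edgeR adjusted p = 0.00105).

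In the remaining lists the counts called with 6 libraries are read against 3.48% of all genes higher and 5.6% lower, and those without knockout replicate 2 against 23% higher and 23.2% lower. Of 14 chaperones and importers of ribosomal proteins, 1 rose, Ipo9, with 171, 114 and 167 CPM in knockout libraries and 98.2, 86.5 and 86.9 CPM in parental libraries (log2 fold change 0.73 ± 0.18, edgeR adjusted p = 0.050, just below the threshold). That call was lost in 9 of 15 other settings. Leaving out knockout replicate 2 gave 7 of the 14 higher and 1 lower. Of 36 initiation factors, 3 rose and 1 fell with 6 libraries, and 13 were higher and 8 lower without knockout replicate 2. Eif4g2, which drives cap-independent starts, had a log2 fold change of 0.85 ± 0.19 and Eif2s1, the alpha subunit of eIF2, one of 0.81 ± 0.16. Eif4a2, a helicase, fell by 1.05 ± 0.24 on the log2 scale, with 177, 305 and 189 CPM in knockout libraries against 535, 396 and 458 CPM in parental libraries (edgeR adjusted p = 0.043). Of 12 elongation and termination factors 1 rose, the release factor Etf1 (log2 fold change 0.74 ± 0.14, edgeR adjusted p = 0.031), and 6 were higher and 1 lower without knockout replicate 2. Of 14 genes of mTORC1 and LARP1 control 1 fell, Rptor, the scaffold of mTORC1, which had 84.4, 107 and 81.2 CPM in knockout libraries and 137, 141 and 143 CPM in parental libraries (log2 fold change -0.63 ± 0.14, edgeR adjusted p = 0.041). Leaving out knockout replicate 2 gave 2 of the 14 higher and 5 lower.

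Promoter matches were also counted by how the members were called without knockout replicate 2. Starts were found for 16 of the 22 members called lower, and the 5 starts of members called higher came from 4 genes. With so few starts, it cannot be judged whether the groups differed. A run counted here need not begin at the start, so it need not be the 5' terminal oligopyrimidine tract. A pyrimidine run was present at 8 of 18 starts of members called lower (44.4%), at 22 of 48 starts of members not called (45.8%) and at 1 of 5 starts of members called higher (20%). CGGAAG was present at 66.7%, 58.3% and 80% of these starts in the same order.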

How the data were processed

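Per the file headers, the authors' deposited tables give, per gene and library, counts of total exon reads, counts of unique exon reads, exon length and TPM. Recomputed TPM from total exon reads and length differed from the deposited TPM by at most 6.00e-11. The submitters' processing notes name the build GRCm39. Aligner, counter and strand handling were not given in the sources used here. Where genes overlap on either strand, it is therefore not known whether their reads were separated.

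Libraries were grouped by the genotype label. Total exon reads were tested with edgeR 4.0.16 (glmQLFit and glmQLFTest, filterByExpr, TMM, group only) under R 4.3.3, with Benjamini-Hochberg adjustment over 12775 genes and a call at an adjusted p below 0.05. CPM are TMM-scaled, log2 CPM used a prior count of 2, and standard errors come from the quasi-likelihood F statistic. A count of 0 allows up to 3 reads, 0.0735 to 0.0917 CPM per library; intervals and this floor cover counting error only. Within groups, the chi-square per degree of freedom of library pairs was lowest for knockout replicates 1 and 3, at 7.77, and 40.8 or more for other pairs, so all 6 libraries were kept as separate. P-values reflect only the spread among the 6 cultures.

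Members, lists, tests and the rule for named genes were chosen with earlier results of these data known. That rule takes called members, the 5 highest and 5 lowest by fold change, with and without knockout replicate 2, by level and by lowest unique share, all P stalk, 5S RNP and paralog genes, Rps27a, and up to 2 called genes in each direction of each other list. Not every gene taken is reported here, and members named beyond it were chosen after their values were seen. Alternatives were RLE and upper quartile scaling, TMM over genes that are not members, other filters, DESeq2 1.42.0, limma-voom (limma 3.58.1), unique reads, the replicate number as a block and each library left out.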

Additional observations from a re-analysis of the deposited data

How the results depend on the processing

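With all 6 libraries, the direction of the 1 member called higher and the count of 0 called lower held under RLE and upper quartile scaling, scaling over genes that are not members, other filters, limma-voom and unique reads. DESeq2 gave 4 members higher. For the other lists, 11 genes higher became 34 with DESeq2 and 17 with unique reads. Of all genes, 3.48% were called higher with edgeR and 11.6% with DESeq2. The shares of all genes with unique reads and with the replicate number as a block are not given here. Replicate numbers did not pair the libraries (correlations of -0.37, -0.10 and 0.28 between libraries of the same number); with the number as a block, 1 member was higher and 0 lower, the median member was at -0.04, and the other lists had 1 gene higher and 0 lower. The log2 ratio difference of Rps27l over Rps27 was 1.83 with unique reads, of which Rps27 had 283 over all 6 libraries.

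Leaving out single libraries, members called higher ranged from 0 to 4 and members called lower from 0 to 22, with 22 only when knockout replicate 2 was left out. The median member ranged from -0.24 to 0.14, and the difference in read share from -1.56 to 0.352 percentage points. Genes of the other lists called higher ranged from 0 to 49 and called lower from 0 to 20. Of all genes, 23% were called higher and 23.2% lower without knockout replicate 2. With other libraries left out these shares are not given here, so the ranges cannot be read as a result about the lists. The log2 ratio difference ranged from 1.21 to 1.70 for Rpl7l1 over Rpl7, from 0.76 to 1.51 for Rps27l over Rps27, and from 0.05 to 0.55 for Rpl22l1 over Rpl22. In alternatives added after the data were seen, leaving out knockout replicate 2 together with another scaling, test, block or unique reads gave 2 to 5 members higher and 17 to 29 lower: 17 with the replicate block, 20 with unique reads, 23 with RLE scaling, limma-voom or scaling over genes that are not members, 28 with upper quartile scaling and 29 with DESeq2. The shares of all genes called in these alternatives are not given here. With knockout replicate 2 left out and no other change, 23.2% of all genes were called lower and 23% higher, against 27.5% and 5% of members. For the alternatives, the counts alone cannot show whether the members differed from other genes. In these alternatives the median member was between -0.30 and -0.22 (-0.25 with scaling over genes that are not members, -0.28 with upper quartile scaling). The causes were not tested. With 3 libraries a group, and 1 that stands apart, changes of most members smaller than the spread within the knockout group were not detectable.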
